A study of Rattus norvegicus with 6 samples.

Results

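The genes described here are 8 genes that neutrophils use for their granules, their cytosol and their surface: S100a8, S100a9, Camp, Mmp8, Elane, Mpo, Csf3r and Cxcr2. They were chosen by name, and a probe belonged to one of them if its RefSeq accession did. Of the 8 genes, 7 had a probe, 1 each, among 15443 genes named on the array, and Mpo had none by accession and was not analysed here. Gene expression was measured in whole liver blocks of 6 rats, 1 array per animal: 3 normal rats and 3 rats whose bile duct had been ligated, which stops bile flow and scars the liver (hepatic fibrosis). The comparison asks how fibrotic liver differed from normal liver. The labels give no genetic change, drug, strain, sex or age for either group and no time after ligation, and do not say whether the normal rats had a sham operation.

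Neutrophils are short-lived white blood cells that enter injured tissue from the blood. In mammals their granules are filled in sequence while the cells mature in the bone marrow. Primary (azurophil) granules with myeloperoxidase and serine proteases come first, and secondary granules with antimicrobial peptides and collagenase later. Receptors for chemokines mark the mature cell. S100a8 and S100a9 pair in the cytosol as calprotectin, which binds calcium and metal ions, and monocytes make them too.

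To show where transcription of the tested members begins, the 250 bases before the annotated start are given for the 3 of them that the RefSeq promoter table (GRCr8) holds. The table matched 6 of the 8 members. Capitals mark matches on either strand to TTNNGNAA (reverse complement TTNCNNAA), a loose pattern of C/EBP factors of the granulocyte lineage, to TATAAA (the TATA box), to AGGAAGT (PU.1) or to TGANTCA (AP-1), and no matches overlapped in the lines shown. The windows are chr2:178490623-178490872 (minus strand) for S100a9, chr8:118721999-118722248 (minus strand) for Camp and chr5:143582970-143583219 (plus strand) for Csf3r.
S100a9: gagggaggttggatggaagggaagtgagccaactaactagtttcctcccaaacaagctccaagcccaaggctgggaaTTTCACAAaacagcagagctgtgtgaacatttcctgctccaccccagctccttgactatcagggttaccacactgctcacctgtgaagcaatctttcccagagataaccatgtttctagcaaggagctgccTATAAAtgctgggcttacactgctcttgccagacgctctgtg
Camp: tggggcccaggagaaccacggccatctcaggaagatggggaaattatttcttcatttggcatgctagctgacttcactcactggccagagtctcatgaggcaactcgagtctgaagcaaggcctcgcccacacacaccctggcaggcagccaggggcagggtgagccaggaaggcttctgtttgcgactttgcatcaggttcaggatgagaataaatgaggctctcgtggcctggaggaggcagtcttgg
Csf3r: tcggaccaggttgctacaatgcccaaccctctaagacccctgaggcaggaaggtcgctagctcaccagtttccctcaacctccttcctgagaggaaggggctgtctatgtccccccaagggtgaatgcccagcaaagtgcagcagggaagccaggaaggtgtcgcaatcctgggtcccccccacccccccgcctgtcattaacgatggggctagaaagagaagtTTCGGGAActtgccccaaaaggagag
The S100a9 window held 1 match to TTNNGNAA, from -173 to -166 bases relative to the start, and 1 TATAAA from -42 to -37. That of Csf3r held 1 match to TTNNGNAA from -26 to -19, and that of Camp held none of the 4 patterns. Of 33469 such windows in the table, 37.2% held TTNNGNAA, 12.9% TATAAA, 7.08% AGGAAGT and 6.34% TGANTCA. A match to TTNNGNAA is thus common, and a match to any of the 4 patterns describes letters only. Among members that were too dim to be tested, the window of Mmp8 held 2 matches to TTNNGNAA, 1 to AGGAAGT and 1 to TATAAA, and that of Cxcr2 held none.

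The 6 arrays lay on 1 slide. The 75th percentile of the processed signal ran from 3755 to 4386 on the normal arrays and from 4840 to 6401 on the fibrosis arrays, with the highest value on fibrosis array 1. That array also had the largest share of spots well above background, 78.0%, against 67.2% to 71.7% on the other 5 arrays. All 10 hepatocyte markers listed were well above background on all 6 arrays. Of 7433 genes tested, 18.2% were called higher in fibrosis and 5.77% lower (limma, adjusted p under 0.05). Levels below are log2 signals minus the array's 75th percentile, so that 0 is a signal at that percentile.

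The calprotectin pair was higher in all 3 fibrotic livers. S100a8 stood at -3.15, -2.42 and -3.16 on normal arrays 1 to 3 and at 0.61, -1.11 and 0.71 on fibrosis arrays 1 to 3. S100a9 stood at -4.35, -2.98 and -3.43 on the normal arrays and at 0.41, -2.11 and -0.14 on the fibrosis arrays. For both genes every fibrosis array lay above every normal array, and fibrosis array 2 was the lowest of its group. S100a8 rose by a log2 of 2.63 ± 0.50 (SE, limma adjusted p = 0.00913), or 6.19-fold. That value rests on 2 fibrosis arrays, because both spots of S100a8 on fibrosis array 3 were left out. The Feature Extraction software had marked them as non-uniform or as population outliers. With marked spots kept, as in the levels above, the difference was 2.98 ± 0.49 (adjusted p = 0.00354). S100a9 rose by 2.94 ± 0.62 (adjusted p = 0.0108), or 7.69-fold, with all 6 arrays. In liver blocks, more cells that make a transcript and more of it per cell cannot be told apart.

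Both calls held under each alternative that gave a value, 28 for S100a8 (2.23 to 3.57) and 30 for S100a9 (2.45 to 3.94), with adjusted p of at most 0.0324 and 0.0423. The 2 genes are direct neighbours in the RefSeq gene table, with 0 genes between them. Fibrosis array 1 shared a slide row with all 3 normal arrays, while fibrosis arrays 2 and 3 lay in another row. Within the shared row, fibrosis array 1 exceeded the normal mean by 3.52 for S100a8 and by 4.00 for S100a9, where marked spots are kept. Because the other row held no normal array, a fit with slide row as a block compares fibrosis array 1 alone with the normal arrays and assumes that this lone array varies like the others. It gave 3.44 for S100a8 (limma adjusted p = 0.00582) and 3.94 for S100a9 (0.0208).

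**Figure D1:**
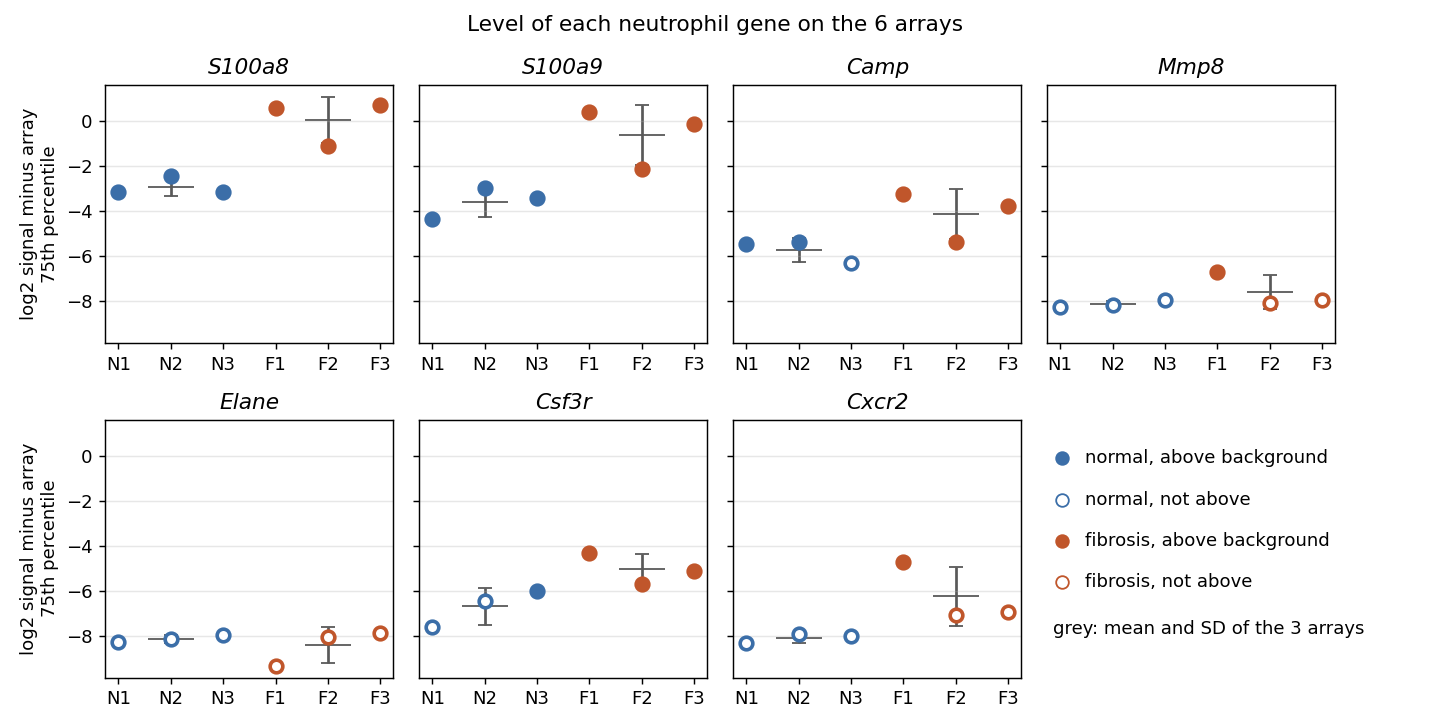
Level of each of the 7 neutrophil genes with a probe on normal arrays (N1 to N3, blue) and fibrosis arrays (F1 to F3, orange), as log2 signal minus the array's 75th percentile with marked spots kept. Filled points were well above background and open points were not. Grey bars give the mean and SD of the 3 arrays. S100a8, S100a9 and Csf3r have every fibrosis array above every normal one, as do 22.1% of all genes tested with marked spots kept. Csf3r was tested only because its fibrosis arrays were above background, so it is not on equal terms with that share. Cxcr2 points do not overlap either, but most are open and its 2 spots disagree on F2 and F3.

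The granule genes Camp, Mmp8 and Elane had dim signals. Only Camp was bright enough to be tested, and it was not called. Camp, the cathelicidin antimicrobial peptide of secondary granules, stood at -5.47, -5.38 and -6.34 on the normal arrays and at -3.23, -5.39 and -3.79 on the fibrosis arrays. Fibrosis array 2 lay within the normal range, so the groups overlapped. The difference of 1.59 ± 0.54 did not pass (limma adjusted p = 0.0697), and it passed without fibrosis array 2 (2.22, adjusted p = 0.00842) and with array weights (2.18, 0.00542). Camp was well above background on normal arrays 1 and 2 but not on normal array 3.

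Mmp8, the neutrophil collagenase, stood at -8.29, -8.20 and -7.97 on the normal arrays and at -6.74, -8.11 and -7.96 on the fibrosis arrays. Only fibrosis array 1 measured it well above background, and the other 5 arrays lay close together at the floor of detection. It was not tested, and no fold is given for the group. On fibrosis array 1 alone it was 1.36-fold above the lowest signal detected on the normal arrays. Elane, the neutrophil elastase of primary granules, did not reach the background limit on any of the 6 arrays. Its values ran from -8.30 to -7.96 on the normal arrays and from -9.35 to -7.88 on the fibrosis arrays, with 1 spot per array, and no difference could be measured.

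Of the receptors, Csf3r was called higher and Cxcr2 was too dim to be tested. Csf3r, the receptor for granulocyte colony-stimulating factor, stood at -7.62, -6.44 and -6.03 on the normal arrays and at -4.33, -5.72 and -5.10 on the fibrosis arrays. Each fibrosis array lay above each normal array, although fibrosis array 2 exceeded normal array 3 by little. Csf3r rose by 1.64 ± 0.49 (limma adjusted p = 0.0416), with 1 of 3 normal arrays above background. On that array, number 3, 1 of its 2 spots was above background, so the size of the difference rests on normal signals near the detection limit. Its call was lost under 17 of 29 alternatives, among them quantile normalization (1.18, adjusted p = 0.135), normexp background correction (0.48, 0.177), slide row as a block (2.36, 0.0573) and leaving out fibrosis array 1 (1.28, 0.119), fibrosis array 3 (1.67, 0.0743), normal array 1 (1.18, 0.108) or normal array 2 (1.77, 0.0793).

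Cxcr2, the receptor for neutrophil-attracting CXC chemokines, stood at -8.34, -7.91 and -8.03 on the normal arrays and at -4.72, -7.10 and -6.93 on the fibrosis arrays. Only fibrosis array 1 measured it well above background, and so it was not tested. Its 2 spots disagreed on fibrosis array 2 (-8.08 and -6.13) and on fibrosis array 3 (-8.02 and -5.85). No fold is given for the group. Fibrosis array 1 alone was 5.49-fold above the lowest signal detected on the normal arrays. That fold holds for the processed signals only, since normexp background correction gave a group difference of 0.46 in place of 1.84.

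Of the 8 members, then, 3 were called higher and 0 lower among 4 tested, where 18.2% of all tested genes were called higher and 5.77% lower. S100a8 and S100a9 were above background on every array. Camp and Csf3r passed the filter on dim probes only through the fibrosis group, and of 628 genes that passed in that way 72.9% were called higher, so their direction is in part set by the filter. Without fibrosis array 1, 3 members could be tested and 1 was called (S100a9), or 2 of 4 with marked spots kept.

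**Figure D2:**
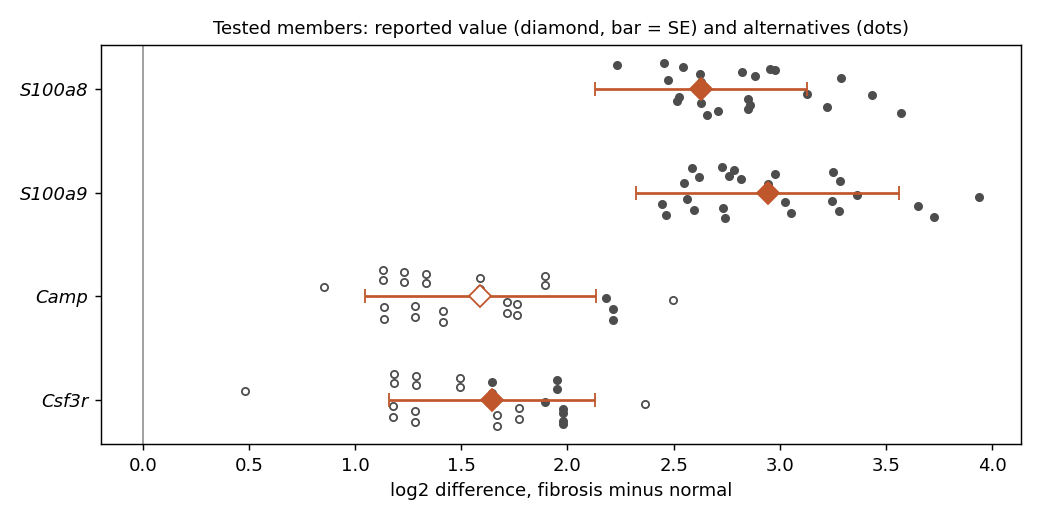
Log2 difference, fibrosis minus normal, of the 4 tested members. Orange diamonds with SE bars are the reported values, small dots are the alternatives, and filled symbols have an adjusted p under 0.05; S100a8 and S100a9 lie above 2 in all of them, whereas Camp is called in 3 of 29 and Csf3r in 12 of 29.

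The fibrotic livers differed among themselves in these genes. With marked spots kept, fibrosis array 1 was the highest and fibrosis array 2 the lowest for S100a9, Camp and Csf3r, and S100a8 differed in that fibrosis array 3 was slightly above fibrosis array 1. Over 10864 genes tested with marked spots kept, the order of array 1, then 3, then 2 was seen in 10.2%, and array 3, then 1, then 2 in 22.6%. Among 37 other neutrophil genes, described below, 3 (8.11%) had the first order and 9 (24.3%) the second, near the shares of all genes. The range over the 3 fibrosis arrays was 1.82 for S100a8, 2.52 for S100a9, 2.16 for Camp and 1.39 for Csf3r, against a median of 0.78 over all tested genes. A smaller range was found in 98.5% of tested genes for S100a9, 96.6% for Camp, 93.3% for S100a8 and 83.0% for Csf3r. Among the normal arrays the ranges were 0.74 for S100a8, 1.37 for S100a9, 0.96 for Camp and 1.60 for Csf3r. The groups did not overlap, with fibrosis higher, for 3 of the 4, against 22.1% of all tested genes with fibrosis higher and 20.9% with fibrosis lower. Csf3r, 1 of the 3, and Camp passed the filter only through the fibrosis group. That route favours genes higher in fibrosis, so the 3 of 4 and the 22.1% are not on equal terms.

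Other neutrophil genes from 6 lists included genes raised in all fibrotic livers and genes detected on fibrosis array 1 alone. Among the lists are recruitment and growth factor ligands and granulocyte transcription factors, so the pooled counts are not a measure of neutrophil content. Beside the members, 64 genes were listed and 54 had a probe, of which 26 were tested, 12 rose and 1 fell. With marked spots kept, 37 were tested, 16 rose and 1 fell, where 15.8% of all genes were called higher and 9.12% lower. Their median difference was 1.19, or 0.97 with marked spots kept, against 0.03 and -0.07 over all genes tested. Of the 26, 5 passed the filter only through the fibrosis group. In the fit with slide row as a block, which sets fibrosis array 1 alone against the normal arrays, 7 rose.

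In the primary granule list only 3 of 9 genes with a probe could be tested with marked spots kept. Serpinb1a, an inhibitor of neutrophil serine proteases, rose by 2.17 ± 0.26 (limma adjusted p = 0.000690, marked spots kept), and 0 of the 3 fell. Genes of the stored proteins did not share 1 pattern. Lyz2 (lysozyme) was brightest on fibrosis array 2, at 2.95, and Prss57, a serine protease, stood at -6.82 on fibrosis array 1 and between -6.82 and -5.07 on the others. Ctsg (cathepsin G) stood at -5.90 on fibrosis array 1 and between -8.21 and -7.81 elsewhere, and was above background there alone. So was Bpi, a bacterial membrane-binding protein, at -6.32, although its values on fibrosis arrays 2 and 3, -6.61 and -6.55, also lay above the normal arrays (-8.40 to -8.05). Np4, a neutrophil defensin, stood at -1.41 on fibrosis array 1 and between -8.01 and -5.48 on the other arrays, of which normal array 2 and fibrosis array 3 were above background. Defa5, named as a defensin too, stood at -2.11 on fibrosis array 1 and between -7.77 and -5.82 on the others, whereas Defa8 was not above background on any array. Rat defensins are close paralogs, so signal may be shared between these probes. Prtn3, proteinase 3, was above background on fibrosis array 1 (-5.30) and normal array 1 (-6.15).

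**Figure D3:**
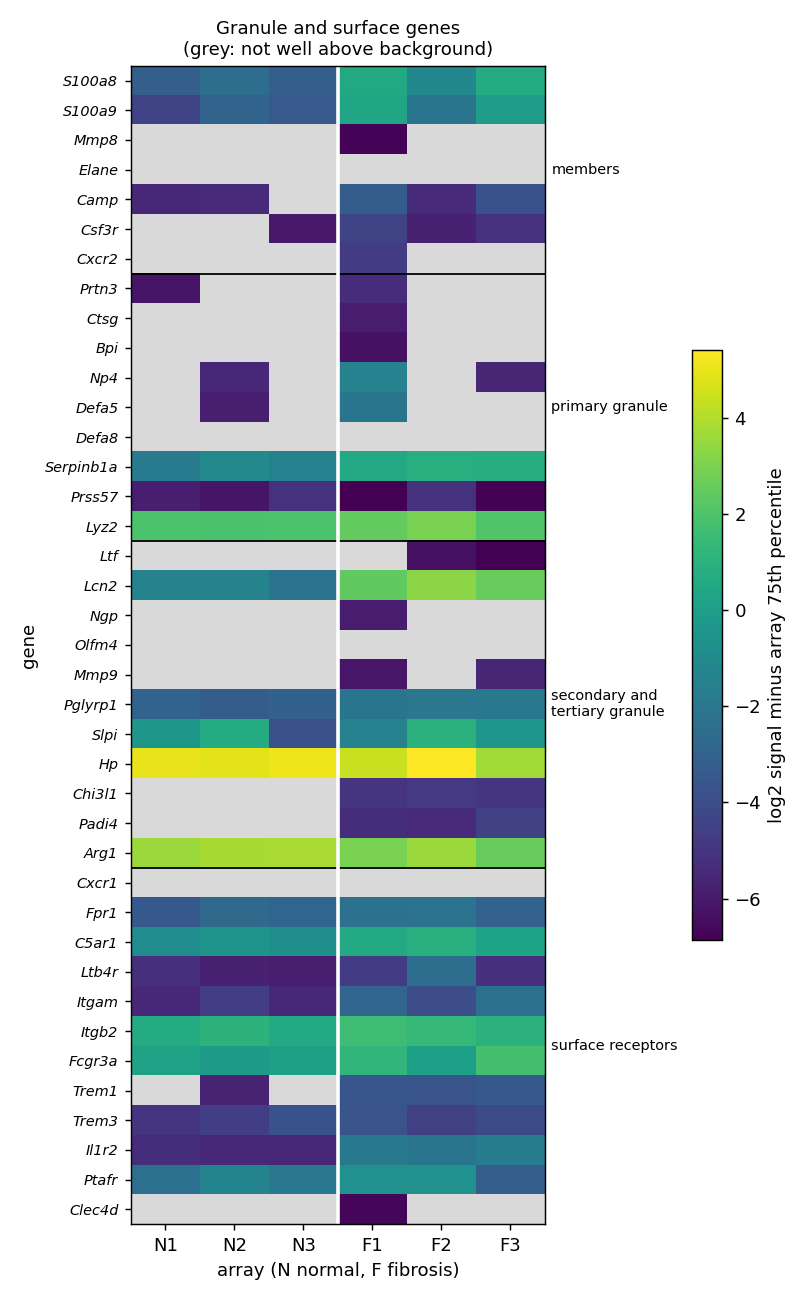
Level of the members and of the listed granule and surface genes (rows) on the 6 arrays (columns), as log2 signal minus the array's 75th percentile with marked spots kept. Grey cells were not well above background; Mmp8, Cxcr2, Ctsg, Bpi, Ngp and Clec4d are among the genes coloured only in column F1, and 1 listed receptor is not drawn.

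In the secondary and tertiary granule list 4 of 7 genes tested with marked spots kept rose and 0 fell. Lcn2 (lipocalin 2, an iron-siderophore binding protein also made by hepatocytes and epithelia) rose by 4.40 ± 0.34 (limma adjusted p = 8.60e-05, marked spots kept). Padi4, the enzyme that citrullinates histones, stood at -8.33, -8.22 and -7.99 on the normal arrays and at -5.24, -5.36 and -4.52 on the fibrosis arrays. No normal array measured it above background, and it passed the filter only through the fibrosis group. Padi4 was called higher, with group means of -8.18 and -5.04 (limma adjusted p = 0.000182). Its fibrosis mean lay 4.41-fold above the lowest signal detected on the normal arrays. That fold holds for the processed signals only, since Padi4 differed by 1.02 (0.0203) after normexp background correction, which adds an offset. Ngp, neutrophilic granule protein, was above background on fibrosis array 1 alone, at -5.90. Ltf (lactoferrin) was above background on fibrosis arrays 2 and 3 and not on fibrosis array 1, and Olfm4 on no array.

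Among the other surface receptors 4 of 7 tested rose and 0 fell. Il1r2, the decoy receptor for interleukin-1, was at -5.26, -5.43 and -5.43 on the normal arrays and at -1.89, -2.09 and -1.66 on the fibrosis arrays. It rose by 3.43 ± 0.24 (limma adjusted p = 5.83e-05). Trem1, an activating receptor of neutrophils and monocytes, rose by 3.08 ± 0.42 (0.00130), with fibrosis arrays between -3.67 and -3.50. It was above background on 1 of 3 normal arrays and passed the filter only through the fibrosis group, and normexp gave 1.48 (0.00119). Unlike the calprotectin pair, Il1r2 and Trem1 were nearly level across the fibrotic livers, with ranges of 0.43 and 0.17 where marked spots are kept. This was not shared by all receptors called: the range was 1.59 for Itgam and 0.59 for C5ar1. Clec4d, a C-type lectin receptor of myeloid cells, was above background on fibrosis array 1 alone, at -6.63, and Cxcr1 on none.

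The phagocyte oxidase, which makes superoxide in neutrophils and macrophages, was above background on all arrays for all 5 genes with a probe. Of 4 tested, 2 rose and 0 fell, and of 5 tested with marked spots kept 4 rose. Ncf1 rose by 1.23 ± 0.27 (limma adjusted p = 0.0134) and Ncf4 by 1.47 ± 0.38 (0.0248, marked spots kept). Leaving out normal array 2 (1.23, limma adjusted p = 0.0506) or 3 (1.13, 0.0678) ended the call of Ncf1, and so did slide row as a block (0.82, 0.187) and scaling to the array median (0.88, 0.0552). That of Ncf4 ended under array median scaling (1.12, 0.0563) and when any normal array was left out (1.42 to 1.54, 0.0667 to 0.0914).

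Of the ligand list, 2 of 6 tested rose and 0 fell. Cxcl6, a CXC chemokine that acts on Cxcr2, stood at -8.39, -8.27 and -8.04 on the normal arrays and at -1.69, -2.69 and -2.98 on the fibrosis arrays. No normal array measured it above background, and it passed the filter only through the fibrosis group. Cxcl6 was called higher, with group means of -8.23 and -2.45 (limma adjusted p = 3.82e-05). Its fibrosis mean lay 26.4-fold above the lowest signal detected on the normal arrays. The fold again holds for the processed signals only, with a difference of 3.38 (4.62e-05) after normexp. Cxcl1, another Cxcr2 ligand, rose by 1.24 ± 0.34 (0.0445, 2 unmarked arrays per group), or by 1.20 ± 0.26 with marked spots kept (0.0114). Its call ended under 8 alternatives, among them quantile normalization (1.03, 0.0856), slide row as a block (1.03, 0.207), leaving out normal array 2 (1.24, 0.0683) and, with marked spots kept, leaving out normal array 3 (1.06, 0.0661). Csf3, the ligand of Csf3r, stood at -0.02, -0.46 and -0.35 on the normal arrays and at -1.04, -0.69 and -1.69 on the fibrosis arrays, a difference of -0.86 ± 0.31 that did not pass (0.0809). Among factors of granulocyte development, Runx1 rose by 2.32 ± 0.29 (0.000887) and Cebpa, which hepatocytes express as well, fell by 1.77 (SE 0.26, 0.00182). Gfi1 was above background on no array.

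Detection on fibrosis array 1 alone was counted for all genes. Mmp8 and Cxcr2 are 2 of 7 members with this pattern, and 5 of the 54 other neutrophil genes have it, among them Ctsg, Bpi and Ngp. It was seen in 3.31% of 15443 named genes and 1 of 57 markers of other cell types (Kit). A gene above background on all 6 arrays cannot have this pattern, so these shares are not on equal terms. Such genes were 9780 of the named genes and 50 of the 57 markers. Among members they were 2 of 7, and among the other neutrophil genes 32 of 54. For fibrosis array 2 alone and fibrosis array 3 alone the count was 0 among members and 0 among the other neutrophil genes. Those patterns were rare over all genes too, at 93 and 76 of 15443 named genes, so the counts of 0 set no contrast. Above background were 6 of 7 members on fibrosis array 1, 4 on each other fibrosis array and 3 on each normal array. Over all named genes the share on fibrosis array 1 was 78.6%, against 68.0% to 72.6% on the other arrays. These shares are not on equal terms with the members either, since most named genes were above background on all 6 arrays. The part of this array-wide gain in the counts of members was not tested.

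Markers of other cell types moved as well, and their part in the values above was not tested. Of the macrophage and monocyte markers, 12 of 12 were above background on all arrays, with 0 of 6 tested called, or 0 higher and 1 lower (Cd14, -1.33 ± 0.28, limma adjusted p = 0.0103) of 12 with marked spots kept. Their summed signal, as log2 over the array's 75th percentile, ran from 4.31 to 4.55 on normal and from 4.63 to 4.87 on fibrosis arrays. Of the eosinophil and mast cell markers, 3 of 7 tested rose and 0 fell, led by the mast cell protease Cma1 at 3.36 ± 0.42 (0.000906) and Tpsab1, a tryptase, at 1.34 ± 0.26 (0.00768). Their summed signal ran from -1.20 to -0.75 and from -0.12 to 1.05, highest on fibrosis array 1. Of the eosinophil genes, Epx and Il5ra were above background on no array and Ccr3 on normal array 3 alone. Prg2 was above background on all 6 arrays and was not called (-0.49 ± 0.31, limma adjusted p = 0.289). The same sum over the 6 detected members ran from -2.35 to -1.49 on normal and from -0.42 to 1.61 on fibrosis arrays. It mostly follows the calprotectin pair, with signals on fibrosis array 1 of 9742 for S100a8 and 8532 for S100a9, against 681 for Camp.

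Of the lymphocyte markers, 0 of 5 tested rose and 1 fell, with sums of 0.58 to 1.34 and 0.65 to 1.16. Blood and platelet markers gave 1 higher of 5 tested (Pf4, 0.98 ± 0.27, limma adjusted p = 0.0321), and with marked spots kept Hbb, a haemoglobin chain, fell by 0.88 (SE 0.23, 0.0255). The Pf4 call ended under 14 of 30 alternatives and that of Hbb under 7, among them quantile normalization (-0.47, 0.180) and leaving out fibrosis array 1 (-0.80, 0.0745), with marked spots kept. Leaving out normal array 1 (0.93, 0.101) or 3 (0.86, 0.138), or fibrosis array 1 (0.93, 0.0916) or 2 (0.87, 0.0776), ended that of Pf4. Their sums ran from 3.89 to 4.19 on normal and from 3.22 to 3.65 on fibrosis arrays. Bile duct markers rose in 4 of 4 tested, or 8 of 8 with marked spots kept, where Sctr differed by 5.47 ± 0.44 (9.91e-05) and Krt7 by 5.65 ± 0.53 (0.000202). Krt7 was above background on 1 of 3 normal arrays and passed the filter only through the fibrosis group. Their sums ran from 0.08 to 0.48 and from 3.74 to 4.17, lowest on fibrosis array 3 and highest on fibrosis array 2, where the calprotectin pair was lowest. Hepatocyte markers gave 0 higher and 2 lower of 10 with marked spots kept (Slc10a1 at -1.42 ± 0.27, 0.00681, and Cyp2e1 at -0.76 ± 0.21, 0.0334), with sums of 7.16 to 7.27 and 6.40 to 6.78. The Cyp2e1 call ended under 8 alternatives, among them leaving out any 1 normal array (-0.84 to -0.70, 0.0706 to 0.143), fibrosis array 1 (-0.78, 0.0707) or fibrosis array 2 (-0.77, 0.0502). That of Cd14 ended when normal array 2 (-1.23, 0.0509) or 3 (-1.21, 0.0575) was left out.

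**Figure D4:**
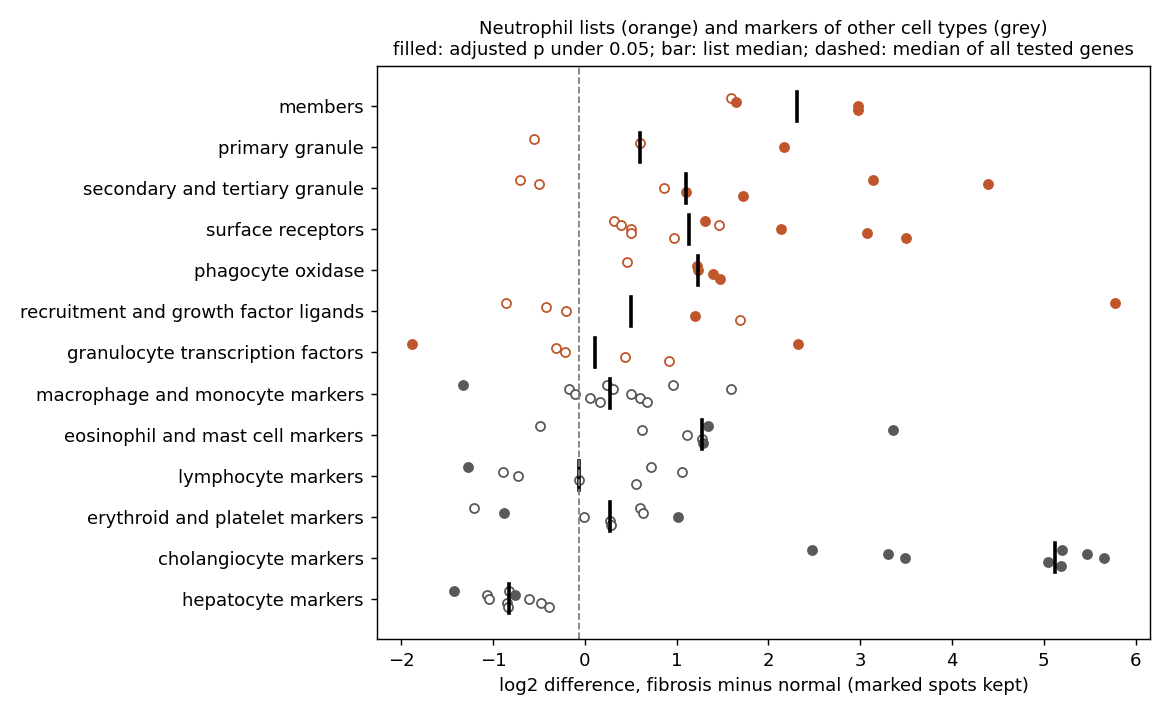
Log2 difference, fibrosis minus normal, of each tested gene of the members and the other neutrophil lists (orange) and of 6 marker lists of other cell types (grey), with marked spots kept. Filled points have an adjusted p under 0.05, black bars are list medians and the dashed line is the median of all tested genes (-0.07); bile duct markers have the highest median and most macrophage markers are open.

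The genes most like each member across the 6 arrays were found by the root mean square difference of profiles centred on their own means, in log2 units. With marked spots kept, S100a8 and S100a9 were each other's nearest among 10864 genes, at 0.37. After S100a9, those nearest to S100a8 were Fhl2 (0.40) and Itgam (0.46). Without marked spots, and among 5505 genes with a value on every array, S100a9 was nearest to Spats2l (0.52), Gpr183 (0.56) and S100b (0.57), since S100a8 lacks fibrosis array 3 there. Camp was nearest to Col14a1 (0.28), Retnlg (0.30) and Ifgga2l2 (0.31), and Csf3r to Klra17 (0.27), Me2 (0.29) and Cxadr (0.32). Retnlg stood at -5.51, -5.70 and -6.67 on the normal arrays and at -2.91, -5.54 and -3.34 on the fibrosis arrays, with fibrosis array 2 within the normal range as for Camp. Between members, Camp and S100a9 differed by 0.88 and Csf3r and Cxcr2 by 0.58, though Cxcr2 was above background on 1 array only.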

How the data were processed

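Total RNA of 6 liver blocks was labelled with Cy3 and hybridised in 1 colour, per the labels' protocols. The authors deposited linear spot intensities from Agilent Feature Extraction 11.5.1.1, background-subtracted and detrended, per the file headers, which record no scaling between arrays. Flags beside the intensities were used as given. Accessions, without versions, were matched to the GRCr8 RefSeq table, which named 18355 of 30367 probes.

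The log2 of each processed signal was taken and the array's 75th percentile subtracted. Control spots and spots marked as non-uniform or population outliers (18.8% to 35.2% per array) were left out. Spots of 1 probe were averaged. Testing required that 0.5 or more of a probe's spots were well above background on every array of 1 group or both, and values on 2 or more arrays per group. The brightest probe stood for a gene. Groups were compared with limma 3.58.1 (lmFit, eBayes; R 4.3.3), and Benjamini-Hochberg adjusted p-values were taken across the whole table and called under 0.05. The fit was tested on simulated data. Errors after ± are standard errors. A fold above the lowest detected signal uses, for each normal array, whichever is higher, the probe's signal or the lowest signal detected above background. That lowest signal averaged -7.18 on the normal arrays. Undetected probes could read higher, such as Camp at -6.34 on normal array 3, so these folds are not strict lower bounds. Lists are described by counts and medians.

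Named genes are all members, the called genes of each other list that moved most (2 in each direction at most), and the 3 nearest genes of each member. A value with marked spots kept is given for a gene that marked spots left untested, and for the nearest genes of S100a8. Values of 1 receptor and 1 lymphocyte marker are not reported here. Csf3, C5ar1 and the list genes described by detection alone were named after their values were seen. The members and lists were chosen with earlier results of these data known. P-values measure the spread between these arrays. Replicates were numbered in record order, which pairs no arrays. Alternatives were other scalings (quantile, array median, cyclic loess, E1A control probes), marked spots kept, normexp (offset 50) on median signals, other filters, probe choices and limma settings, slide row as a block, and leaving out each array.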

Additional observations from a re-analysis of the deposited data

How the results depend on the processing

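S100a8 and S100a9 kept direction and call under every alternative that gave a value. S100a8 could not be fitted without fibrosis array 1 or 2 when marked spots were left out, and a filter on all 6 arrays left Camp and Csf3r untested. The Csf3r call was lost with quantile normalization (1.18 with or without marked spots), array median (1.29), cyclic loess (1.50), normexp (0.48), no filter (1.64, adjusted p = 0.0717 by limma) and slide row as a block (2.36), and its range over left-out arrays was 1.18 to 1.98; with marked spots kept it was 1.18 without normal array 1, 1.77 without normal array 2, 1.28 without fibrosis array 1 and 1.67 without fibrosis array 3. Camp passed with array weights (2.18) and without fibrosis array 2 (2.22), with a range of 1.14 to 2.22 over left-out arrays. Members called higher numbered 1 to 4 over left-out arrays. Over all genes, slide row as a block (fibrosis array 1 alone against the normal arrays) gave 747 higher and 97 lower, and left-out arrays 890 to 1492 higher and 142 to 524 lower, or up to 1959 and 1264 with marked spots kept (lower: 759, 933 and 1264 without fibrosis arrays 1, 2 and 3). Genes called lower numbered 677 with quantile, 1170 with array median, 110 with E1A scaling, 899 with array weights and 249 with no filter; with marked spots kept, 991, and 1035, 2556, 806 and 240 with quantile, median, loess and E1A. Scaling moved the median of all genes from 0.03 to -0.13 (quantile), -0.33 (array median) and 0.35 (E1A). Other neutrophil genes called higher numbered 7 with slide row and 8 to 19 over left-out arrays; called lower, 4 with array median, 2 with normexp, trend and robust settings or weights, and 1 to 4 over left-out arrays. Markers of other cell types called higher numbered 14 with array weights or, with marked spots kept, loess or E1A, and 4 to 17 over left-out arrays (17 and 13 without fibrosis arrays 2 and 3, marked spots kept). Those called lower numbered 2 with quantile, loess, normexp or trend and robust settings, 3 with array median or weights, 0 with E1A, and 5, 4, 14, 4 and 0 with marked spots kept (75th percentile, quantile, median, loess, E1A), and 0 to 8 over left-out arrays (with marked spots kept 3 and 2 without normal arrays 1 and 3, and 2, 7 and 8 without fibrosis arrays 1, 2 and 3). Where fewer arrays were fitted, the test had fewer samples; otherwise the cause was not tested. Signal near background limits Mmp8, Elane, Cxcr2 and Csf3r. No paired analysis was possible because the replicate numbers only name the arrays.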
